A study of Mus musculus with 5 samples.

Results

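The 96 potassium channel genes described here are the rows of the deposited gene list whose symbol starts with Kcn, a subunit letter code and a number, without antisense rows ending in os and pseudogene rows, out of 78334 genes listed. Of these, 93 code for a channel subunit or an auxiliary protein and 3 are non-coding RNAs (Kcnq1ot1, Kcnmb4os1 and Kcnmb4os2). The symbol alone chose them, and no measured value did. The study followed the decay of an aversive memory and profiled mouse dentate gyrus, the gateway of the hippocampus, cell by cell or nucleus by nucleus. In contextual fear conditioning (CFC) a mouse learns to link a place with foot shock.

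A single library of each of the 5 groups was used, each group being 10 mice, so no group had a replicate and no difference was tested. Dissociated cells came from wild-type mice 14 days after CFC (the library CFC-14d) or, as its control, from wild-type mice 14 days after foot shocks given at random (Random-14d). Nuclei of frozen tissue came from mice labelled as Csf2rb2 knockouts 14 days after CFC (KO-CFC), from wild-type mice at the same time after CFC (the library WT-CFC), and from untreated wild-type mice (WT-naive). The title of KO-CFC names a knockout of Csf2rb2, while its genotype tag names Csf2rb3, and the sources used here do not give the kind of allele. All libraries were made with 3′ kits, cells by collagenase dissociation and red cell lysis, nuclei by homogenisation and a density gradient. Every interval below is a 95% interval that covers counting error only.

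Potassium channels let potassium leave or enter the cell and so set its resting potential and the length and spacing of its action potentials. Several groups share a pore built on the same plan: voltage-gated channels open on depolarisation, calcium- and sodium-activated channels couple the membrane to internal ions, inward rectifiers pass current best near rest, and two-pore domain channels leak potassium at all voltages. Auxiliary subunits bind the pore and change its gating or its traffic. In the hippocampus, fast interneurons are known for Kv3 channels, axons and myelin for Kv1, principal neurons for the Kv7 current that restrains repetitive firing, astrocytes for inward rectifiers that clear potassium after activity, and mural cells of small vessels for metabolically gated inward rectifiers.

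Depth was counted in unique molecular identifiers (UMIs), 1 for each RNA molecule captured. CFC-14d held 126937815 of them, Random-14d 122920565, KO-CFC 38045642, WT-CFC 68519389 and WT-naive 64716053. Potassium channel genes took 139644 of these in CFC-14d, 117802 in Random-14d, 385744 in KO-CFC, 863309 in WT-CFC and 815947 in WT-naive. Cells and nuclei are not compared with each other below. Clusters were called like a cell type from marker lists that hold no potassium channel gene, and the 96 genes were kept out of the variable genes used for clustering. Cells gave 16 classes and nuclei 12, and a class level is the UMI sum of a gene in a library and class, divided by that of all genes and given per 1000000 (CPM). The label dentate gyrus was checked on granule neuron-like nuclei, named from a list that includes Prox1. These were 1766 in KO-CFC, 1377 in WT-CFC and 1190 in WT-naive. CA3 pyramidal-like nuclei outnumbered them in both wild-type libraries, with 2007 in WT-CFC and 2651 in WT-naive, so the tissue was not dentate gyrus alone. No class of mature neurons in the libraries of cells was large enough to use (50 cells in each). Those libraries were mainly microglia-like cells (10288 in CFC-14d and 11653 in Random-14d) and choroid plexus epithelial-like cells (9379 in CFC-14d and 5105 in Random-14d), a tissue next to the dentate gyrus. Of the analysed barcodes, 1.88% stayed unnamed in CFC-14d, 1.83% in Random-14d, 37.0% in KO-CFC, 41.2% in WT-CFC and 22.2% in WT-naive.

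The library labelled KO-CFC stood apart. Its Xist level, the RNA that silences an X chromosome, was 641 CPM, against 1.81 in WT-CFC and 2.94 in WT-naive, and its level of the Y-linked Uty was 14.5 CPM, against 96.9 in WT-CFC and 101.4 in WT-naive. Immunoglobulin RNA was high in it as well, with Igkc at 460.3 CPM in KO-CFC, against 0.0146 in WT-CFC and 0 in WT-naive. Csf2rb2, the gene named in its title, had 9.67 CPM in KO-CFC, 17.6 in WT-CFC and 14.4 in WT-naive, and 3′ reads do not show which part of it is deleted. Most KO-CFC nuclei of 2 classes lay in a cluster with few wild-type nuclei. These were 1673 granule neuron-like nuclei in a cluster led by Xist among others, and 711 microglia-like nuclei in a cluster led by Cd74. Of KO-CFC astrocyte-like nuclei, 483 lay in a cluster led by Gfap, which also held 74 WT-CFC and 187 WT-naive nuclei. Of CA3 pyramidal-like nuclei, 131 were named in KO-CFC, against 2007 in WT-CFC and 2651 in WT-naive, while 1198 KO-CFC nuclei of an unnamed cluster led by Kcnq5 were left out. What sets this library apart cannot be told apart from its genotype label. Libraries of cells shared 282 barcode sequences, and pairs of libraries of nuclei shared 25 to 32.

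RefSeq promoter windows of the 150 bases before the gene start were available for 69 of the 96 genes, on the build GRCm38.p6, which is older than the build of the files. Those of a choroid plexus, a pericyte, an astrocyte and an oligodendrocyte precursor gene are shown, since each of them was high in a different class. Capitals mark TATAAA (the TATA box), CCAAT (the CCAAT box) and GGGCGG (the GC box) on either strand, each strand read 5′ to 3′ along the gene. The windows lie at chr1:87394730-87394879 on the minus strand (Kcnj13), chr6:142571615-142571764 on the minus strand (Kcnj8), chr3:89520014-89520163 on the plus strand (Kcnn3) and chr17:52602559-52602708 on the plus strand (Kcnh8).
Kcnj13: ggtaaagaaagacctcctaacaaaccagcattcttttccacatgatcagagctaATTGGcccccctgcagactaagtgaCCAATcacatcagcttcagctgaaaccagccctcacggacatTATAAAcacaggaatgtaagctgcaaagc
Kcnj8: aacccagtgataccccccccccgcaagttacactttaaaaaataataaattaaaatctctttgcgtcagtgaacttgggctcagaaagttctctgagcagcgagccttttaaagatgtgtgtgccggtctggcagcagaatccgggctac
Kcnn3: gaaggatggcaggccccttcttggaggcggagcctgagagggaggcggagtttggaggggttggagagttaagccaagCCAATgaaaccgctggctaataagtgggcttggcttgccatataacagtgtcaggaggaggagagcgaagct
Kcnh8: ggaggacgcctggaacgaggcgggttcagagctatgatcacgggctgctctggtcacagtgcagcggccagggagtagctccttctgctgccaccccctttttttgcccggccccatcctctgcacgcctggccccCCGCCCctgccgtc

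The Kcnj13 window holds TATAAA 29 bases before the start and 2 CCAAT matches, and that of Kcnj8 holds none of the 3 motifs. TATAAA occurs in 7.57% of all 32851 windows of this length, CCAAT in 24.5% and GGGCGG in 28.6%. Among the 94 windows of potassium channel genes, 2.13% hold TATAAA, 17.0% CCAAT and 39.4% GGGCGG. These are letter matches and describe no binding.

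Of the 96 genes, 80 reached 20 UMIs in some class of every library of cells or of nuclei: 54 in cells, 68 in nuclei and 42 in both. The 16 that reached it in neither were Kcna3, Kcna5, Kcna7, Kcna10, Kcne1, Kcng4, Kcnj1, Kcnj5, Kcnj14, Kcnj15, Kcnk5, Kcnk15, Kcnk16, Kcnmb3, Kcnmb4os1 and Kcnv2.

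**Figure D1:**
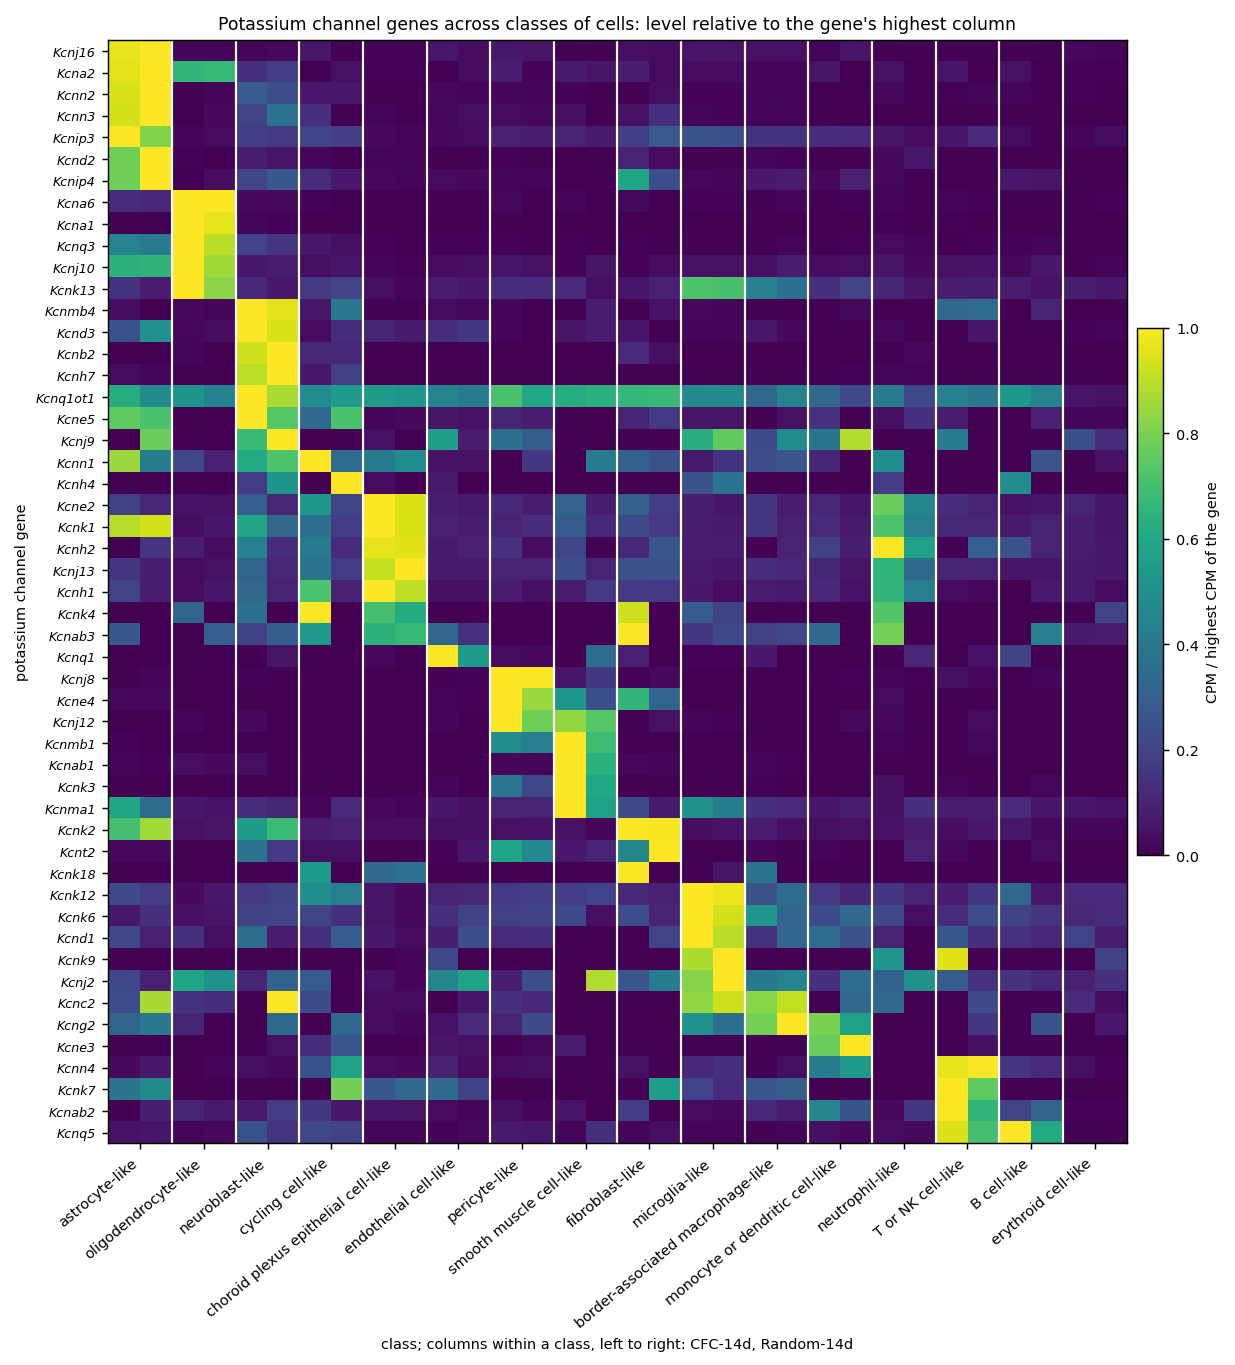
Levels of 51 of the 54 potassium channel genes with at least 20 UMIs in some class of both libraries of cells, each row scaled to its highest column, with classes along the x axis and CFC-14d left of Random-14d within a class. Blocks of high values stand at astrocyte-like, oligodendrocyte-like, neuroblast-like, choroid plexus epithelial-like, mural and microglia-like cells, and the neutrophil-like and cycling cell-like columns repeat the choroid block.

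**Figure D2:**
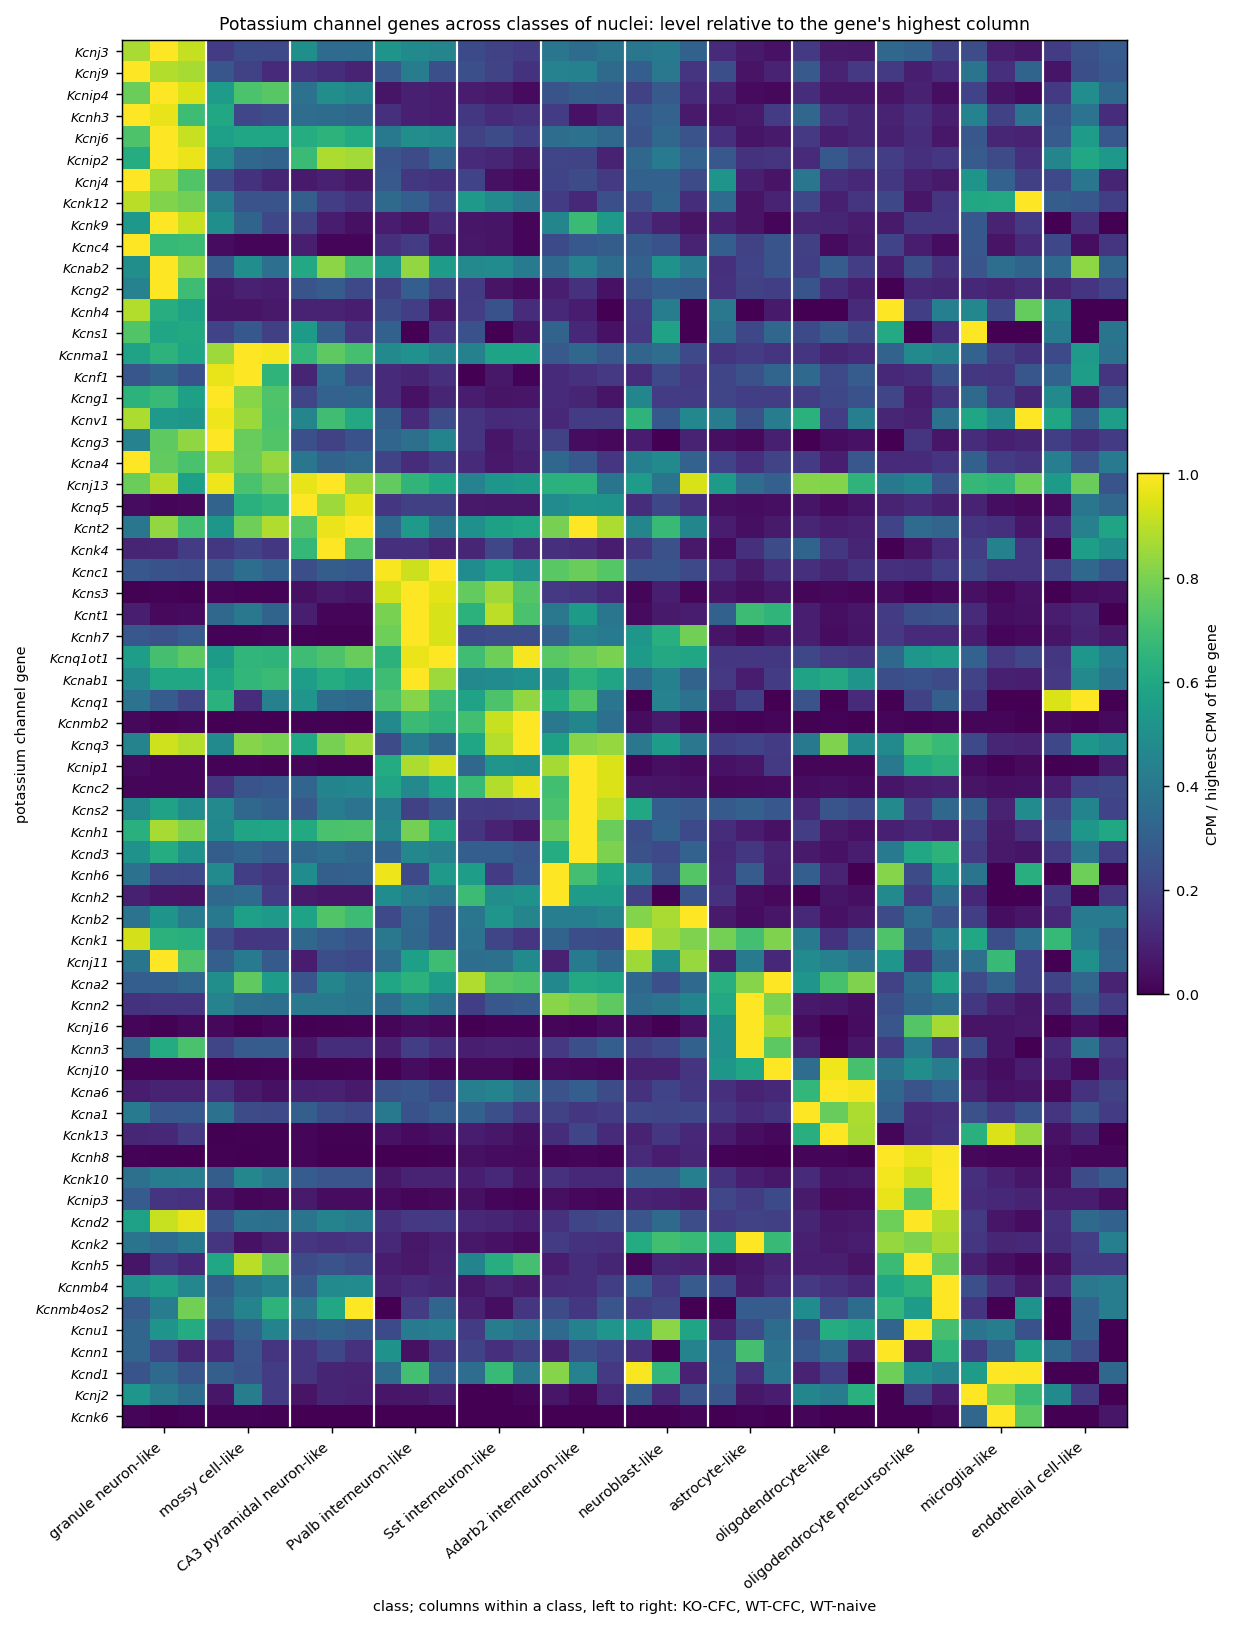
Levels of 64 of the 68 potassium channel genes with at least 20 UMIs in some class of all 3 libraries of nuclei, each row scaled to its highest column, with KO-CFC, WT-CFC and WT-naive left to right within each class on the x axis. Neuron-like classes share most of their genes at graded levels, while Kcnh8, Kcnip3 and Kcnk6 are high in 1 class each.

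A gene was said to mark a class where its level was at least 2-fold that of every other class in every library of the part, with at least 20 UMIs there in each. In cells, 17 of 40 potassium channel genes with enough UMIs in their top class (42.5%) marked a class, beside 20.3% of all genes. In nuclei it was 8 of 54 (14.8%), beside 14.5% of all genes. Over broad groups, 22 of 38 genes marked one in cells, beside 26.0% of all genes, and 7 of 43 in nuclei, beside 16.4% of all genes. Just inside the limit stood Kcnk12 (2.05-fold) and Kcnab2 (2.07-fold) in cells and Kcnk10 (2.00-fold) and Kcnj9 (2.02-fold) in nuclei. Just outside stood Kcnd3 (1.86-fold) and Kcnk6 (1.92-fold) in cells and Kcnf1 (1.799-fold) and Kcnj4 (1.93-fold) in nuclei. Some marks were kept in fewer than 50% of the alternative settings: Kcnk12 in 4 of 12, Kcnab2 in 5 of 12, Kcnk10 in 6 of 13, and over broad groups Kcnd1 in 5 of 12 and Kcng3 in 6 of 13. Since classes come from the same cells, these are descriptions and carry no test.

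Among inward rectifiers, Kcnj8 marked pericyte-like cells, Kcnj16 astrocyte-like cells and Kcnj9 granule neuron-like nuclei. Kcnj8, the pore of the ATP-sensitive channel of small vessels, had 784 CPM in CFC-14d and 785 in Random-14d in pericyte-like cells. In smooth muscle cell-like cells, the next class, it had 47.2 CPM in CFC-14d and 128 in Random-14d. Pericyte-like cells were thus at least 6.12-fold higher than the next class in either library. Abcc9, the sulfonylurea receptor that pairs with Kcnj8, is not one of the 96 genes and was split in the same way. It had 628 CPM in CFC-14d and 618 in Random-14d in pericyte-like cells, and 36.2 CPM in CFC-14d and 126 in Random-14d in smooth muscle cell-like cells. Kcnj12, a strong rectifier, was shared by the mural classes. Pericyte-like cells had 30.01 CPM in CFC-14d and 23.4 in Random-14d, and smooth muscle cell-like cells had 25.2 CPM in CFC-14d and 22.1 in Random-14d.

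The glial rectifiers were split between astrocytes and the oligodendrocyte lineage. Kcnj10 codes for Kir4.1, the main potassium-buffering channel of astrocytes, and Kcnj16 for a subunit that joins it. Kcnj16 marked astrocyte-like cells, with 39.9 CPM in CFC-14d and 41.4 in Random-14d, at least 14.7-fold above the next class. Its partner was not highest there. Kcnj10 had 165 CPM in CFC-14d and 141 in Random-14d in oligodendrocyte-like cells, and 106 CPM in CFC-14d and 108 in Random-14d in astrocyte-like cells. In nuclei the order of these classes varied by library: Kcnj10 had 82.5 CPM in KO-CFC, 92.6 in WT-CFC and 156 in WT-naive in astrocyte-like nuclei, and 55.8 CPM in KO-CFC, 153 in WT-CFC and 111 in WT-naive in oligodendrocyte-like nuclei. Kcnj16 had 36.0 CPM in KO-CFC, 70.8 in WT-CFC and 61.4 in WT-naive in astrocyte-like nuclei. Oligodendrocyte precursor-like nuclei held it at 19.0 CPM in KO-CFC, 51.9 in WT-CFC and 61.3 in WT-naive.

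Kcnj2, a strong rectifier of many excitable and immune cells, was highest in microglia-like cells, with 10.3 CPM in CFC-14d and 12.6 in Random-14d. The G-protein-gated rectifiers, through which transmitters silence neurons, were highest in granule neuron-like nuclei. Kcnj3 had 454 CPM in KO-CFC, 519 in WT-CFC and 474 in WT-naive there, and 269 CPM in KO-CFC, 248 in WT-CFC and 236 in WT-naive in Pvalb interneuron-like nuclei. Kcnj6 had 482 CPM in KO-CFC, 670.2 in WT-CFC and 613 in WT-naive in granule neuron-like nuclei, and 416 CPM in KO-CFC, 434 in WT-CFC and 409 in WT-naive in CA3 pyramidal-like nuclei. Kcnj9 marked granule neuron-like nuclei, unlike both of these. It had 74.95 CPM in KO-CFC, 66.3 in WT-CFC and 65.2 in WT-naive there, and 33.1 CPM in KO-CFC, 32.9 in WT-CFC and 25.8 in WT-naive in Adarb2 interneuron-like nuclei.

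Kcnj13, Kcne2 and Kcnk1 were choroid plexus genes in these cells. Kcnj13, the rectifier of the apical membrane of transporting epithelia, had 715 CPM in CFC-14d and 784 in Random-14d in choroid plexus epithelial-like cells. Kcne2, an auxiliary subunit that joins Kcnq1 and other pores in epithelia, had 310.0 CPM in CFC-14d and 293 in Random-14d there. Kcnk1, a two-pore leak channel, had 256 CPM in CFC-14d and 242 in Random-14d. None of these marked the class, because other classes followed closely. Neutrophil-like cells had 516 CPM in CFC-14d and 272 in Random-14d for Kcnj13, and astrocyte-like cells had 229 CPM in CFC-14d and 239.6 in Random-14d for Kcnk1. Over broad groups, in which classes are pooled, Kcnj13 did mark the epithelial group, and kept that mark in 8 of 12 alternative settings.

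Choroid RNA was found in every class, and each gene was set beside Ttr, an abundant RNA of the choroid plexus. Kcnj13 had 2.16 UMIs per 1000 Ttr UMIs in choroid plexus epithelial-like cells of CFC-14d and 2.06 in those of Random-14d. In the 15 other classes the range was 1.28 to 2.50 in CFC-14d and 1.26 to 2.66 in Random-14d, which includes the choroid value. For Kcne2 the choroid value was 0.937 in CFC-14d and 0.772 in Random-14d, and the other classes ran from 0.503 to 1.26 in CFC-14d and from 0.494 to 0.955 in Random-14d. Kcnk1 departed from this in neural classes. Its choroid value was 0.774 in CFC-14d and 0.636 in Random-14d, but astrocyte-like cells had 3.64 in CFC-14d and 5.15 in Random-14d, and neuroblast-like cells 1.38 in CFC-14d and 1.72 in Random-14d. The other 13 classes ran from 0.438 to 0.880 in CFC-14d and from 0.491 to 0.833 in Random-14d.

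**Figure D3:**
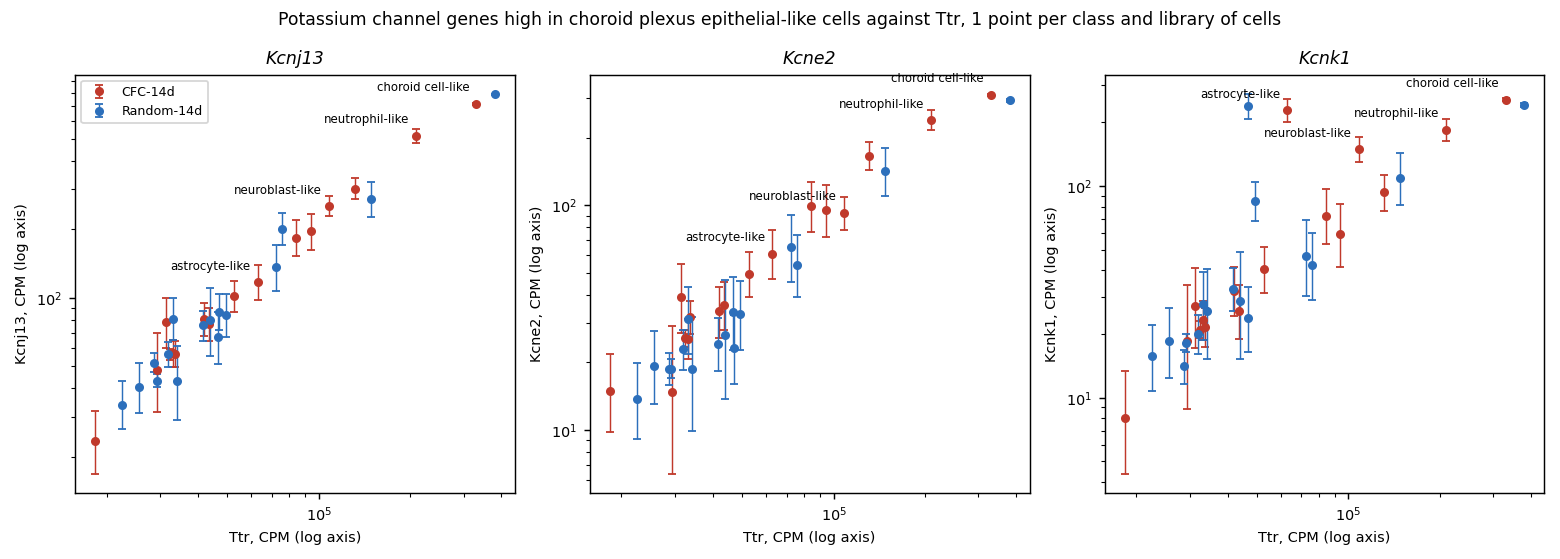
Level of Kcnj13, Kcne2 and Kcnk1 (y axes, CPM, log scale) against that of Ttr (x axes, CPM, log scale), 1 point per class and library of cells with 95% counting intervals, CFC-14d in red and Random-14d in blue. Kcnj13 and Kcne2 follow Ttr across classes, from 1.26 to 2.66 UMIs per 1000 Ttr UMIs for Kcnj13, while astrocyte-like cells lie above that line for Kcnk1.

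Two-pore genes were spread over microglia, oligodendrocytes, fibroblasts and mural cells. Kcnk13, known as THIK-1, the resting potassium channel of microglia, was high in oligodendrocytes too. It had 119 CPM in CFC-14d and 98.2 in Random-14d in oligodendrocyte-like cells, and 86.4 CPM in CFC-14d and 84.2 in Random-14d in microglia-like cells. In nuclei it had 110.4 CPM in KO-CFC, 175 in WT-CFC and 152 in WT-naive in oligodendrocyte-like nuclei, and 111 CPM in KO-CFC, 166 in WT-CFC and 148 in WT-naive in microglia-like nuclei. Kcnk6, known as TWIK-2, was highest in microglia in both kinds of library. Microglia-like cells had 56.1 CPM in CFC-14d and 52.5 in Random-14d. Microglia-like nuclei had 21.5 CPM in KO-CFC, 64.9 in WT-CFC and 48.4 in WT-naive, on 29 UMIs in KO-CFC, 32 in WT-CFC and 20 in WT-naive, and no other class of nuclei passed 7 UMIs.

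Kcnk12, a relative of Kcnk13, marked microglia-like cells, with 43.7 CPM in CFC-14d and 42.6 in Random-14d. In nuclei it had 39.1 CPM in KO-CFC, 35.4 in WT-CFC and 34.3 in WT-naive in granule neuron-like nuclei, and 25.9 CPM in KO-CFC, 26.3 in WT-CFC and 43.6 in WT-naive in microglia-like nuclei. Kcnk3, an acid-sensitive leak channel, marked the mural group. Smooth muscle cell-like cells had 63.0 CPM in CFC-14d and 37.6 in Random-14d, and pericyte-like cells 24.7 CPM in CFC-14d and 13.6 in Random-14d. Kcnk2, the mechanically gated TREK-1, was spread over several classes. Fibroblast-like cells had 143 CPM in CFC-14d and 142 in Random-14d, astrocyte-like cells 101 CPM in CFC-14d and 123 in Random-14d, and neuroblast-like cells 77.9 CPM in CFC-14d and 97.5 in Random-14d. In nuclei oligodendrocyte precursor-like nuclei had 111 CPM in KO-CFC, 106 in WT-CFC and 114 in WT-naive, and astrocyte-like nuclei 82.5 CPM in KO-CFC, 132 in WT-CFC and 88.7 in WT-naive.

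Other leak channels were highest in neurons or in oligodendrocyte precursors. Kcnk10, TREK-2, marked oligodendrocyte precursor-like nuclei, with 193 CPM in KO-CFC, 182 in WT-CFC and 196 in WT-naive. Kcnk9, the acid-sensitive TASK-3, was highest in granule neuron-like nuclei, with 23.0 CPM in KO-CFC, 43.2 in WT-CFC and 39.6 in WT-naive. Kcnk4, the mechanically gated TRAAK, was highest in CA3 pyramidal-like nuclei, with 21.7 CPM in KO-CFC, 32.4 in WT-CFC and 24.0 in WT-naive, and overlaps Catsperz on the same strand in an older annotation. In cells Kcnk9 marked the immune group at a low level, with 1.09 CPM in CFC-14d and 1.25 in Random-14d in microglia-like cells.

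Among voltage-gated channels, Kcna1 and Kcna6 of the Kv1 family marked oligodendrocyte-like cells. Kcna1, an axonal and glial delayed rectifier, had 284 CPM in CFC-14d and 274 in Random-14d there, at least 54.2-fold above the next class. Oligodendrocyte-like nuclei had 249.8 CPM in KO-CFC, 192 in WT-CFC and 219 in WT-naive, but granule neuron-like nuclei followed with 104 CPM in KO-CFC, 67.7 in WT-CFC and 69.2 in WT-naive. Kcna6, a related delayed rectifier, had 80.7 CPM in CFC-14d and 81.0 in Random-14d in oligodendrocyte-like cells, and 112 CPM in KO-CFC, 169 in WT-CFC and 166 in WT-naive in oligodendrocyte-like nuclei. Kcna2, the usual partner of Kcna1 in axons, was shared between classes. Astrocyte-like cells had 40.8 CPM in CFC-14d and 42.6 in Random-14d, and oligodendrocyte-like cells 28.1 CPM in CFC-14d and 28.5 in Random-14d. In nuclei Sst interneuron-like nuclei had 72.8 CPM in KO-CFC, 61.0 in WT-CFC and 59.7 in WT-naive, and astrocyte-like nuclei 52.1 CPM in KO-CFC, 67.5 in WT-CFC and 82.5 in WT-naive. Kcna4, an inactivating Kv1 channel, was a gene of excitatory neurons. Granule neuron-like nuclei had 79.5 CPM in KO-CFC, 60.4 in WT-CFC and 56.8 in WT-naive, and mossy cell-like nuclei 69.2 CPM in KO-CFC, 61.3 in WT-CFC and 66.9 in WT-naive.

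Kcnb2, a delayed rectifier of the Kv2 family, marked neuroblast-like cells, with 199 CPM in CFC-14d and 214 in Random-14d, at least 7.55-fold above the next class. That class, which Kcnh7 and Kcnmb4 also marked, pooled unlike clusters. In the larger, of 697 cells, the leading genes included the interneuron markers Dlx1 and Dlx6os1. The other, of 371 cells, was led by Igfbpl1. The part of each cluster in these levels was not tested. In nuclei neuroblast-like nuclei led with 832 CPM in KO-CFC, 894 in WT-CFC and 1022 in WT-naive, but CA3 pyramidal-like nuclei followed with 592 CPM in KO-CFC, 745 in WT-CFC and 702 in WT-naive.

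Kv3 channels, which let fast interneurons repolarise quickly, were graded over interneuron-like nuclei. Kcnc1 had 338 CPM in KO-CFC, 315 in WT-CFC and 341 in WT-naive in Pvalb interneuron-like nuclei. Adarb2 interneuron-like nuclei had 254 CPM in KO-CFC, 263 in WT-CFC and 251 in WT-naive, and Sst interneuron-like nuclei 166 CPM in KO-CFC, 195 in WT-CFC and 173 in WT-naive. The class named for Pvalb had little Pvalb RNA itself, 51.7 CPM in KO-CFC, 18.8 in WT-CFC and 31.2 in WT-naive, and rests on its other markers. For Kcnc2 the Pvalb class was the lowest of the 3 in every library. Adarb2 interneuron-like nuclei had 1166 CPM in KO-CFC, 1676 in WT-CFC and 1585 in WT-naive of it. Sst interneuron-like nuclei had 1135 CPM in KO-CFC, 1481 in WT-CFC and 1627 in WT-naive, and Pvalb interneuron-like nuclei 980.4 CPM in KO-CFC, 791 in WT-CFC and 992 in WT-naive. Kcnc4, an inactivating Kv3 channel, marked granule neuron-like nuclei instead, with 79.0 CPM in KO-CFC, 53.0 in WT-CFC and 53.7 in WT-naive.

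Kv4 channels carry the fast transient current of dendrites. Kcnd2 marked astrocyte-like cells, with 103 CPM in CFC-14d and 131 in Random-14d, at least 7.79-fold above the next class. In nuclei, where mature neurons were captured, oligodendrocyte precursor-like nuclei had 2342 CPM in KO-CFC, 2998 in WT-CFC and 2673 in WT-naive, and granule neuron-like nuclei 1717 CPM in KO-CFC, 2743 in WT-CFC and 2898 in WT-naive. Astrocyte-like nuclei had 538 CPM in KO-CFC, 585 in WT-CFC and 571 in WT-naive, below both of these in every library. Kcnd3 was highest in neuroblast-like cells, with 28.8 CPM in CFC-14d and 27.0 in Random-14d, and in Adarb2 interneuron-like nuclei, with 376 CPM in KO-CFC, 606 in WT-CFC and 487 in WT-naive. Kcnd1 marked microglia-like cells, with 12.9 CPM in CFC-14d and 11.6 in Random-14d.

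The modifier subunits, which are silent alone and tune Kv2 channels, were seen in nuclei: 8 of 10 reached 20 UMIs there and 1 of 10 in cells. Kcns3 separated interneuron classes. Pvalb interneuron-like nuclei had 179 CPM in KO-CFC, 193 in WT-CFC and 185 in WT-naive, and Sst interneuron-like nuclei 146 CPM in KO-CFC, 165 in WT-CFC and 141 in WT-naive. Adarb2 interneuron-like nuclei had 32.0 CPM in KO-CFC, 29.8 in WT-CFC and 22.3 in WT-naive. Kcng1 and Kcnf1 were highest in mossy cell-like nuclei. Kcng1 had 45.1 CPM in KO-CFC, 37.1 in WT-CFC and 32.6 in WT-naive there. Kcnf1 had 26.2 CPM in KO-CFC, 27.1 in WT-CFC and 17.7 in WT-naive. Kcng3 marked the broad group of neurons. Mossy cell-like nuclei had 23.1 CPM in KO-CFC, 17.7 in WT-CFC and 16.8 in WT-naive, and granule neuron-like nuclei 10.2 CPM in KO-CFC, 17.3 in WT-CFC and 19.3 in WT-naive.

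Among ether-a-go-go genes, Kcnh8 marked oligodendrocyte precursor-like nuclei. Kcnh8, a slowly gating channel, had 310.1 CPM in KO-CFC, 299.8 in WT-CFC and 308 in WT-naive there, and 37.8 CPM in KO-CFC, 24.0 in WT-CFC and 32.8 in WT-naive in neuroblast-like nuclei, the next class. Kcnh7, an ERG-type channel, marked neuroblast-like cells, with 141 CPM in CFC-14d and 156 in Random-14d. In nuclei it was highest in Pvalb interneuron-like nuclei, with 698 CPM in KO-CFC, 898 in WT-CFC and 845 in WT-naive, and neuroblast-like nuclei followed with 474 CPM in KO-CFC, 566 in WT-CFC and 708 in WT-naive. Kcnh1, a channel of the founding ether-a-go-go subfamily, was highest in choroid plexus epithelial-like cells, with 39.8 CPM in CFC-14d and 36.0 in Random-14d. Kcnh2, the ERG channel of the heart, marked the epithelial group, with 14.4 CPM in CFC-14d and 14.2 in Random-14d. Neutrophil-like cells had 14.95 CPM in CFC-14d and 8.58 in Random-14d of Kcnh2.

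**Figure D4:**
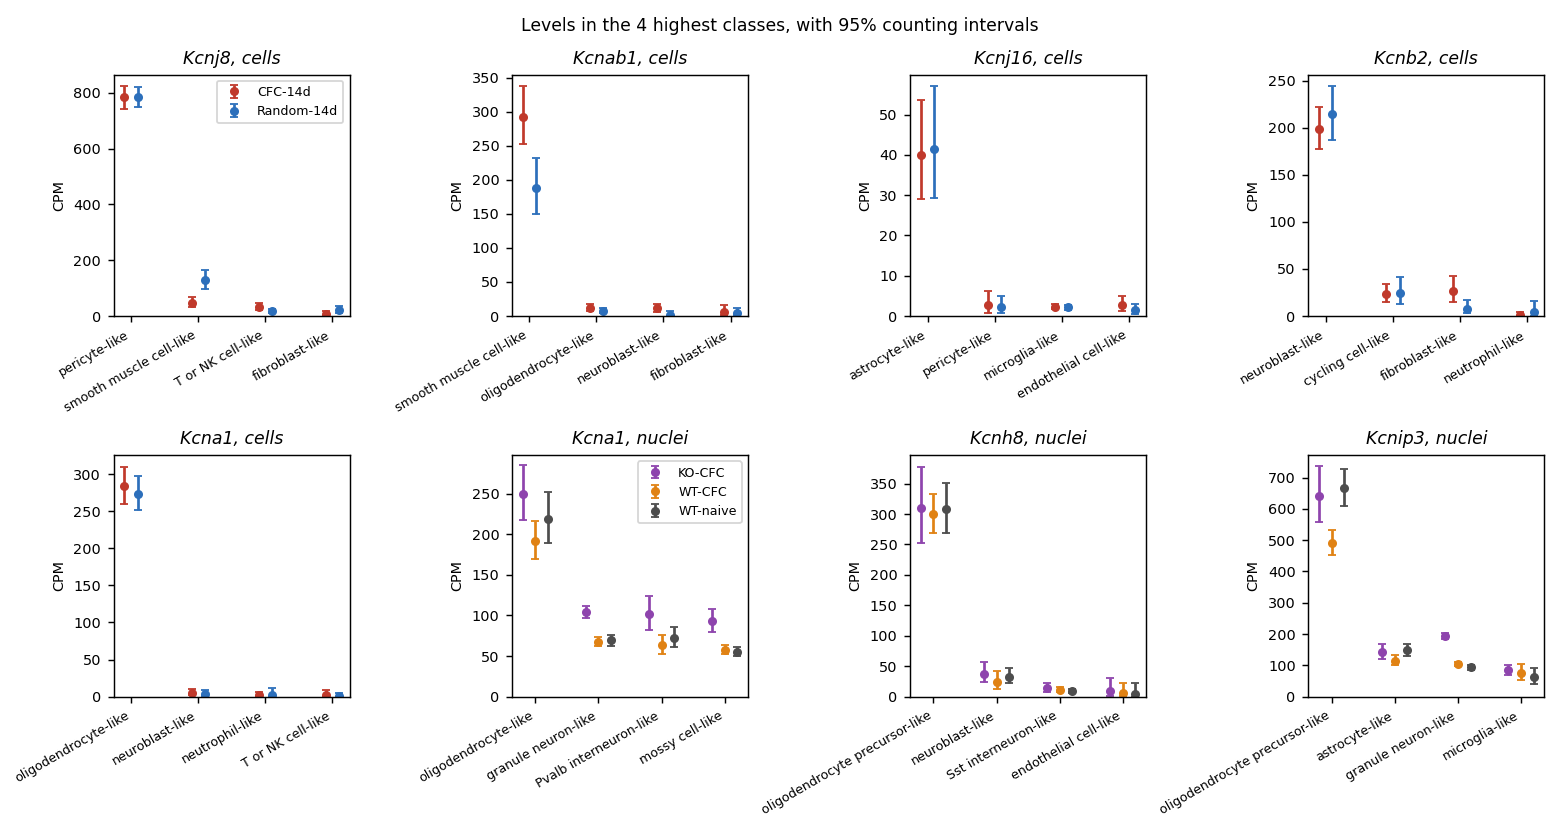
Levels in CPM (y axes, linear from 0, with 95% counting intervals) of 7 genes in the 4 classes where each is highest, cells with CFC-14d left of Random-14d and nuclei with KO-CFC, WT-CFC and WT-naive left to right. Kcna1 in oligodendrocyte-like cells stands at 284 CPM in CFC-14d and 274 in Random-14d with no other class above 5.24 CPM, and in nuclei granule neuron-like nuclei follow at 67.7 to 104 CPM.

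Kv7 genes carry the M-current, the slow brake on firing. Kcnq5 was highest in CA3 pyramidal-like nuclei, with 2756 CPM in KO-CFC, 2348 in WT-CFC and 2627 in WT-naive. Mossy cell-like nuclei had 879 CPM in KO-CFC, 1754 in WT-CFC and 1823 in WT-naive, and granule neuron-like nuclei 94.2 CPM in KO-CFC, 53.1 in WT-CFC and 62.3 in WT-naive. Kcnq3 was high in several neuron classes. Sst interneuron-like nuclei had 509.5 CPM in KO-CFC, 766 in WT-CFC and 862 in WT-naive, and granule neuron-like nuclei 385 CPM in KO-CFC, 801 in WT-CFC and 768 in WT-naive.

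In cells, non-neuronal classes held the Kv7 genes. Kcnq3 marked oligodendrocyte-like cells, with 175 CPM in CFC-14d and 157 in Random-14d, and astrocyte-like cells followed with 78.1 CPM in CFC-14d and 72.8 in Random-14d. Kcnq5 was high in lymphocytes. B cell-like cells had 96.1 CPM in CFC-14d and 58.7 in Random-14d, and T or NK cell-like cells 91.2 CPM in CFC-14d and 67.7 in Random-14d. Kcnq1, which forms epithelial and cardiac channels, marked the endothelial group, with 19.0 CPM in CFC-14d and 10.2 in Random-14d. Kcnq1ot1, a long non-coding RNA on the opposite strand of Kcnq1, was highest in neuroblast-like cells, with 86.4 CPM in CFC-14d and 75.3 in Random-14d. The sources used here do not say whether the counting used strand, so reads of overlapping genes may be shared. The same holds for the pairs Kcnip1 with Kcnmb1 and Kcnmb4 with Kcnmb4os2, and for Kcnh3, Kcnip4, Kcnj13, Kcnh1, Kcnh7 and Kcnab2, each with a protein-coding neighbour on the opposite strand.

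Calcium-activated channels were found in mural cells and in neurons. Kcnma1, the large-conductance pore, was highest in smooth muscle cell-like cells, with 92.9 CPM in CFC-14d and 53.0 in Random-14d, and in mossy cell-like nuclei, with 1111 CPM in KO-CFC, 1303 in WT-CFC and 1287 in WT-naive. Its smooth muscle auxiliary subunit Kcnmb1 marked the mural group. Smooth muscle cell-like cells had 89.7 CPM in CFC-14d and 61.9 in Random-14d, and pericyte-like cells 43.4 CPM in CFC-14d and 38.2 in Random-14d. The auxiliary subunit Kcnmb2 was high in the 3 interneuron classes of nuclei. Sst interneuron-like nuclei had 1067 CPM in KO-CFC, 1403 in WT-CFC and 1531 in WT-naive, Pvalb interneuron-like nuclei 719 CPM in KO-CFC, 1045 in WT-CFC and 997 in WT-naive, and Adarb2 interneuron-like nuclei 611 CPM in KO-CFC, 702 in WT-CFC and 559 in WT-naive. Among the other 9 classes the highest value was 108 CPM, in neuroblast-like nuclei of WT-CFC. Kcnmb4, the brain subunit, marked neuroblast-like cells, with 28.1 CPM in CFC-14d and 27.0 in Random-14d.

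The small-conductance channels Kcnn2 and Kcnn3 marked astrocyte-like cells. Kcnn2 had 139 CPM in CFC-14d and 148 in Random-14d, and Kcnn3 35.4 CPM in CFC-14d and 38.1 in Random-14d. In nuclei Kcnn2 was shared with interneurons. Astrocyte-like nuclei had 332 CPM in KO-CFC, 548 in WT-CFC and 443 in WT-naive, and Adarb2 interneuron-like nuclei 451 CPM in KO-CFC, 435 in WT-CFC and 412 in WT-naive. In nuclei Kcnn3 marked no class. It marked the astrocyte group only over broad groups, in which the classes of neurons are pooled, and in 8 of 13 alternative settings. Astrocyte-like nuclei had 37.0 CPM of it in KO-CFC, 73.1 in WT-CFC and 54.6 in WT-naive. Granule neuron-like nuclei followed with 24.1 CPM in KO-CFC, 44.8 in WT-CFC and 52.2 in WT-naive. Kcnn4, the intermediate-conductance channel of lymphocytes, was highest in T or NK cell-like cells, with 34.3 CPM in CFC-14d and 35.6 in Random-14d. Kcnt2, a sodium-activated channel, was found in fibroblast-like cells at 21.4 CPM in CFC-14d and 46.4 in Random-14d. Pericyte-like cells had 27.3 CPM in CFC-14d and 21.7 in Random-14d. Among nuclei CA3 pyramidal-like nuclei had 290.0 CPM in KO-CFC, 382 in WT-CFC and 393 in WT-naive, and Adarb2 interneuron-like nuclei 313 CPM in KO-CFC, 394 in WT-CFC and 346 in WT-naive.

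Some auxiliary proteins marked a class as well. Kcnab1, a Kv1 beta subunit, had 293 CPM in CFC-14d and 188 in Random-14d in smooth muscle cell-like cells, at least 24.4-fold above the next class. In nuclei it was widely shared. Pvalb interneuron-like nuclei led with 352 CPM in KO-CFC, 511 in WT-CFC and 437 in WT-naive, and mossy cell-like nuclei followed with 301 CPM in KO-CFC, 338 in WT-CFC and 349 in WT-naive. Kcne3 marked monocyte or dendritic cell-like cells, with 16.3 CPM in CFC-14d and 21.1 in Random-14d. Kcnab2, another beta subunit, marked T or NK cell-like cells, with 27.2 CPM in CFC-14d and 17.8 in Random-14d. Kcne4, which inhibits several Kv channels, was highest in pericyte-like cells, with 45.01 CPM in CFC-14d and 38.2 in Random-14d.

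The KChIP proteins bind Kv4 channels, and each of the 4 had its own distribution in nuclei. Kcnip4 was highest in granule neuron-like nuclei, with 5121 CPM in KO-CFC, 6608 in WT-CFC and 6235 in WT-naive. Kcnip1 was an interneuron gene. Adarb2 interneuron-like nuclei had 481 CPM in KO-CFC, 556 in WT-CFC and 526 in WT-naive, and Pvalb interneuron-like nuclei 342 CPM in KO-CFC, 489 in WT-CFC and 519 in WT-naive. Kcnip2 was shared by excitatory neurons. Granule neuron-like nuclei had 75.4 CPM in KO-CFC, 122 in WT-CFC and 118 in WT-naive, and CA3 pyramidal-like nuclei 82.8 CPM in KO-CFC, 107 in WT-CFC and 105 in WT-naive. Kcnip3 marked oligodendrocyte precursor-like nuclei, with 642 CPM in KO-CFC, 492 in WT-CFC and 666 in WT-naive, and astrocyte-like cells, with 124 CPM in CFC-14d and 101 in Random-14d. No oligodendrocyte precursor class was large enough in cells to compare.

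To compare the libraries, each gene's levels over classes were correlated between them. The median Spearman correlation between CFC-14d and Random-14d was 0.66 over 16 classes for 37 genes. Over 12 classes of nuclei it was 0.76 for KO-CFC with WT-CFC, 0.80 for KO-CFC with WT-naive and 0.87 for WT-CFC with WT-naive, over 56 genes. The libraries of a pair share the class definitions.

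The first comparison sets CFC beside shocks given at random. A gene was compared in a class where both libraries together had at least 100 UMIs, and called where the levels were at least 1.5-fold apart. CFC-14d was higher than Random-14d in 25 of 104 pairs of potassium channel gene and class (24.0%), beside 4.97% of all gene and class pairs, and lower in 0, where 1463 of 81159 pairs of all genes were lower (1.8%). Of the 25, 15 were Kcnj13, Kcne2 or Kcnk1 outside the choroid plexus class. Another 8 were genes of other classes in choroid plexus epithelial-like cells, at no more than 4.39 CPM and 5.68% of their highest class, where 11.6% of all genes were higher. The other 2 were vascular. The choroid class was unlike in the libraries, with a median of 1852 UMIs per cell in CFC-14d and 3815 in Random-14d. One of its clusters, with a median of 1420 UMIs, held 4277 CFC-14d and 281 Random-14d cells. The part of this mix in the 8 was not tested.

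In neuroblast-like cells 3 of 8 genes were higher, beside 4.07% of all genes. Kcnj13 had 253 CPM in CFC-14d and 84.0 in Random-14d, a log2 ratio of 1.58 (1.25 to 1.94). The intervals of the libraries did not overlap. Kcne2 there had 92.3 CPM in CFC-14d and 32.8 in Random-14d, a log2 ratio of 1.47 (0.94 to 2.08). Kcnk1 had 149 CPM in CFC-14d and 84.97 in Random-14d, a log2 ratio of 0.81 (0.45 to 1.18). The summed level of the 26 epithelial markers was also higher in these cells, at 112300 CPM in CFC-14d and 50940 in Random-14d. In cycling cell-like cells 3 of 3 were higher, beside 8.08% of all genes. The markers summed to 137300 CPM in CFC-14d and 75600 in Random-14d, and Kcnj13 had 302 CPM in CFC-14d and 136 in Random-14d. In neutrophil-like cells, 481 in CFC-14d and 120 in Random-14d, 3 of 3 were higher, beside 25.4%, and the markers summed to 219000 CPM in CFC-14d and 154000 in Random-14d. Neutrophil-like cells came from a pair of clusters in unlike shares. The one led by Camp held 432 CFC-14d and 45 Random-14d cells, and the one led by Slpi 49 CFC-14d and 75 Random-14d cells. In smooth muscle cell-like cells 2 of 2 were higher, beside 9.79%. The markers summed to 88060 CPM in CFC-14d and 45590 in Random-14d, and Kcnj13 had 184 CPM in CFC-14d and 79.5 in Random-14d. Per 1000 Ttr UMIs, the Kcnj13 count was 2.33 in CFC-14d and 1.70 in Random-14d in neuroblast-like cells, and 2.46 in CFC-14d and 1.84 in Random-14d in neutrophil-like cells. The part of choroid RNA in the 15 pairs was not tested. Kcnj13 in neuroblast-like cells was the only 1 of 11 named pairs past 1.5-fold under every alternative setting, and in cycling cell-like and neutrophil-like cells the direction changed under some.

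The vascular pairs were Kcnq1 and Kcnab1. Kcnq1 in endothelial-like cells had 19.0 CPM in CFC-14d and 10.2 in Random-14d, a log2 ratio of 0.88 (0.33 to 1.47), on 70 UMIs in CFC-14d against 44 in Random-14d, beside 1.54% of all genes higher in that class. With cells weighted equally the log2 ratio was 0.54. Kcnab1 in smooth muscle cell-like cells had 293 CPM in CFC-14d and 188 in Random-14d, a log2 ratio of 0.64 (0.26 to 1.03), on 154 cells in CFC-14d and 97 in Random-14d. Its log2 ratio was -0.34 with finer clusters and -0.08 without doublet removal. In microglia-like cells 0 of 17 potassium channel genes were past 1.5-fold in either direction, beside 1.08% of all genes higher and 0.691% lower. In oligodendrocyte-like cells it was 0 of 8, beside 1.4% higher and 1.51% lower. In pericyte-like cells it was 0 of 9, beside 0.822% higher and 0.933% lower. In astrocyte-like cells 1 of 8 was higher, Kcnj13, beside 1.22%.

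The second comparison sets trained beside untreated wild-type mice, in nuclei. WT-CFC was higher than WT-naive in 25 of 354 pairs (7.06%), beside 3.83% of all pairs, and lower in 12 (3.39%), beside 2.47%. In astrocyte-like nuclei 6 of 26 genes were lower, beside 4.15% of all genes. Of these, Kcnj10 is the one with a known role in astrocytes, the potassium buffer described above. It had 92.6 CPM in WT-CFC and 156 in WT-naive, a log2 ratio of -0.75 (-1.05 to -0.46), on 166 UMIs in WT-CFC against 229 in WT-naive. Its partner Kcnj16 had 70.8 CPM in WT-CFC and 61.4 in WT-naive, a log2 ratio of 0.20 (-0.19 to 0.61), an interval that includes 0. The other 5 (Kcnb2, Kcnh7, Kcnab1, Kcnc1 and Kcnip1) stood at no more than 17.3% of their highest class. Of the 26, 1 was higher, Kcnd3, beside 5.91% of all genes. Astrocyte-like nuclei came from a pair of clusters in unlike shares, the one led by Gfap holding 74 of the 842 WT-CFC nuclei and 187 of the 820 WT-naive nuclei. Within it Kcnj10 had 146 CPM in WT-CFC and 177 in WT-naive, and within the other cluster 87.4 CPM in WT-CFC and 149.8 in WT-naive.

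Kcnq3 in oligodendrocyte-like nuclei was higher in WT-CFC. It had 695 CPM in WT-CFC and 409.5 in WT-naive, a log2 ratio of 0.76 (0.59 to 0.94), in a class where 11.5% of all genes were higher. KO-CFC, also taken 14 days after CFC, had 349.8 CPM there, below WT-naive. Kcnh2 in mossy cell-like nuclei had 9.30 CPM in WT-CFC and 4.59 in WT-naive, a log2 ratio of 1.01 (0.42 to 1.65). The antisense RNA Kcnmb4os2 in CA3 pyramidal-like nuclei had 5.72 CPM in WT-CFC and 9.54 in WT-naive, a log2 ratio of -0.73 (-1.07 to -0.41). It overlaps Kcnmb4, whose reads it may share and which had 50.5 CPM in WT-CFC and 51.2 in WT-naive there. These 3 and Kcnj10 were past 1.5-fold under every alternative setting, out of 15 named pairs. In granule neuron-like nuclei, the main neurons of the dentate gyrus, 1 of 50 genes was higher and 0 lower, beside 1.69% and 1.78% of all genes. That gene was Kcnj13, with 13.9 CPM in WT-CFC and 8.87 in WT-naive, a log2 ratio of 0.64 (0.16 to 1.16).

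Among the other named pairs, Kcnip4 in neuroblast-like nuclei had 1833 CPM in WT-CFC and 790.0 in WT-naive, a log2 ratio of 1.21 (1.07 to 1.36). Kcnma1 there had 468 CPM in WT-CFC and 288 in WT-naive, a log2 ratio of 0.70 (0.44 to 0.96). The class held 148 nuclei in WT-CFC and 397 in WT-naive. In endothelial-like nuclei, 66 in WT-CFC and 62 in WT-naive, the log2 ratio was 1.11 for Kcnd3 and 1.0 for Kcnj6. In CA3 pyramidal-like nuclei it was 0.98 (0.38 to 1.61) for Kcns1, on 63 UMIs in WT-CFC against 37 in WT-naive. For Kcnn1 there it was 0.62 (0.03 to 1.23), on 57 UMIs in WT-CFC against 43 in WT-naive. The lowest log2 ratio over the alternatives was 0.36 for Kcns1 and 0.11 for Kcnn1. The log2 ratio was 0.61 for Kcnf1 in mossy cell-like nuclei and 0.61 for Kcnab2 in Pvalb interneuron-like nuclei. In oligodendrocyte precursor-like nuclei it was 0.69 for Kcnj3 and -0.63 for Kcnmb4.

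**Figure D5:**
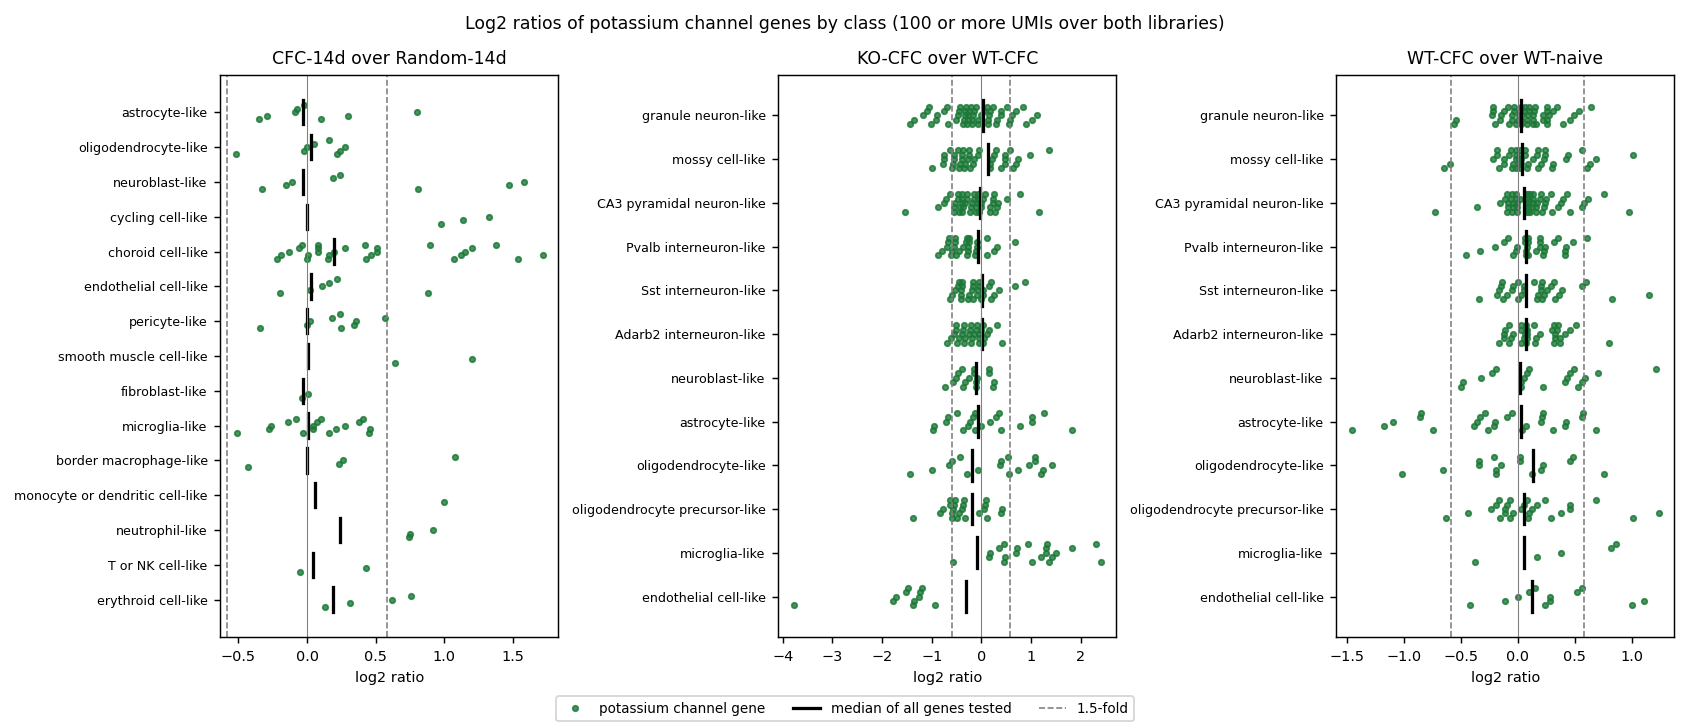
Log2 ratio (x axes) of each potassium channel gene with at least 100 UMIs over both libraries, 1 green point per gene and class (y axis), with the median of all genes tested as a black bar and 1.5-fold as dashed lines. For CFC-14d over Random-14d the points past 1.5-fold lie to the right, for KO-CFC over WT-CFC endothelial-like nuclei lie to the left (11 of 11 genes) and microglia-like nuclei to the right (14 of 21), and for WT-CFC over WT-naive 25 of 354 points lie past 1.5-fold to the right and 12 to the left.

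The third comparison sets the library labelled KO-CFC beside WT-CFC, both 14 days after CFC. KO-CFC was higher in 42 of 340 pairs (12.4%), beside 14.1% of all pairs, and lower in 60 (17.6%), beside 10.1%. Of 52 pairs that the naming rule picks, 25 were past 1.5-fold under every alternative setting. The classes compared are held mainly by different clusters in granule neuron-like (cluster led by Xist in KO-CFC), microglia-like and astrocyte-like nuclei, as given above, and 131 KO-CFC nuclei stand for the CA3 class.

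Kcnq3, a subunit of the M-channel, was past 1.5-fold lower in KO-CFC in 7 of 12 classes and higher in 1, microglia-like nuclei. The 7 include endothelial-like nuclei, where 11 of 11 genes compared were lower. In granule neuron-like nuclei Kcnq3 had 385 CPM in KO-CFC and 801 in WT-CFC, a log2 ratio of -1.06 (-1.12 to -0.99). WT-naive had 768 CPM, above KO-CFC as well. The log2 ratio ran from -1.08 to -1.01 over all alternatives. Oligodendrocyte-like nuclei had 349.8 CPM in KO-CFC and 695 in WT-CFC, a log2 ratio of -0.99 (-1.18 to -0.80). WT-naive had 409.5 CPM there, below WT-CFC as well. Pvalb interneuron-like nuclei had 198 CPM in KO-CFC and 363 in WT-CFC, a log2 ratio of -0.87 (-1.12 to -0.64). In mossy cell-like nuclei the log2 ratio was -0.78, under 1.5-fold in 2 of 11 alternatives. In Sst interneuron-like nuclei it was -0.59, under 1.5-fold in 4 of 11. Within the cluster that held most WT-CFC granule neuron-like nuclei, the 93 KO-CFC nuclei had 328 CPM of Kcnq3, against 809.7 CPM in WT-CFC.

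In granule neuron-like nuclei 11 of 53 genes were lower, beside 7.09% of all genes, and 6 higher, beside 15.4%. The median log2 ratio of the 53 was -0.19, beside 0.03 over all genes compared in the class. Kcnt2, the sodium-activated channel, had 155 CPM in KO-CFC and 329.9 in WT-CFC, a log2 ratio of -1.09 (-1.19 to -0.99). Kcnab2, the Kv1 beta subunit, had 55.8 CPM in KO-CFC and 113 in WT-CFC, a log2 ratio of -1.01 (-1.19 to -0.84). Kcng2, a modifier, had 17.8 CPM in KO-CFC and 40.2 in WT-CFC, a log2 ratio of -1.17 (-1.48 to -0.88). Kcnj11, an ATP-sensitive pore of neurons, was low in level, with 4.69 CPM in KO-CFC and 12.1 in WT-CFC, a log2 ratio of -1.35 (-1.97 to -0.79). All of these were past 1.5-fold under every alternative. Higher in KO-CFC were a KChIP, a modifier and a Kv1 gene. Kcnip3 had 194 CPM in KO-CFC and 104 in WT-CFC, a log2 ratio of 0.90 (0.78 to 1.03). Kcnv1 had 25.5 CPM in KO-CFC and 15.7 in WT-CFC, a log2 ratio of 0.70 (0.36 to 1.04). Kcna1 had 104 CPM in KO-CFC and 67.7 in WT-CFC, a log2 ratio of 0.62 (0.46 to 0.78), and was above WT-CFC in 8 of 8 classes compared, past 1.5-fold in 3.

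In mossy cell-like nuclei, whose marker list holds Csf2rb2, 6 of 40 genes were lower, beside 5.65% of all genes, and 5 higher, beside 19.8%. Kcnq5 had 879 CPM in KO-CFC and 1754 in WT-CFC, a log2 ratio of -1.0 (-1.07 to -0.92). Kcnc2 had 261 CPM in KO-CFC and 438 in WT-CFC, a log2 ratio of -0.75 (-0.89 to -0.61). Both were past 1.5-fold under every alternative. The log2 ratio was -0.75 for Kcnab2, which ran from -0.89 to -0.07 and was under 1.5-fold in 4 of 11 alternatives, and -0.64 for Kcnk10, and on the higher side 0.74 for Kcnk12, 0.69 for Kcna1 and 0.64 for Kcnk9. In CA3 pyramidal-like nuclei 5 of 46 genes were lower, beside 10.7% of all genes, and 2 higher, beside 9.91%. Kcna2 had 21.7 CPM in KO-CFC and 37.5 in WT-CFC, a log2 ratio of -0.76 (-1.46 to -0.20), on 23 UMIs in KO-CFC against 774 in WT-CFC. Kcnmb4 had a log2 ratio of -0.72, Kcnf1 of -1.53 on 3 KO-CFC UMIs, and Kcnk12 of 0.78 with an interval of -0.16 to 1.53.

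In Pvalb interneuron-like nuclei 7 of 29 genes were lower, beside 8.96% of all genes. Kcnh1 had 114 CPM in KO-CFC and 198 in WT-CFC, a log2 ratio of -0.79 (-1.12 to -0.48). The log2 ratio was -0.69 for Kcnab2, -0.67 for Kcnt2 and -0.62 for Kcnb2, while Kcna1 was higher (0.68). In Sst interneuron-like nuclei, where 2 of 30 genes were lower beside 5.53% of all genes, it was -0.64 for Kcnip1 and 0.87 for Kcnk1. In Adarb2 interneuron-like nuclei 2 of 31 genes were lower, beside 5.53%. Kcnd3 there had 376 CPM in KO-CFC and 606 in WT-CFC, a log2 ratio of -0.69 (-0.86 to -0.52).

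In astrocyte-like nuclei 4 of 21 genes were lower, beside 13.8% of all genes, and 5 higher, beside 14.3%. Kcnj16, the Kir4.1 partner, had 36.0 CPM in KO-CFC and 70.8 in WT-CFC, a log2 ratio of -0.96 (-1.54 to -0.44). Kcnn3 had 37.0 CPM in KO-CFC and 73.1 in WT-CFC, a log2 ratio of -0.97 (-1.54 to -0.46). Kcnn2 had 332 CPM in KO-CFC and 548 in WT-CFC, a log2 ratio of -0.72 (-0.90 to -0.55). These 3 were past 1.5-fold under every alternative, and Kcnk2 had a log2 ratio of -0.67. Kcnj10 had 82.5 CPM in KO-CFC, 92.6 in WT-CFC and 156 in WT-naive, so that KO-CFC and WT-CFC both lay below WT-naive. The cluster led by Gfap held 483 of 540 KO-CFC and 74 of 842 WT-CFC astrocyte-like nuclei, and the part of that mix in these ratios was not tested. Within that cluster Kcnn2 had 319 CPM in KO-CFC and 482 in WT-CFC.

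In oligodendrocyte-like nuclei 4 of 18 genes were lower, beside 19.1% of all genes, and 7 higher, beside 10.6%. The median log2 ratio of the 18 was 0.47, beside -0.18 over all genes compared. None of the 7 higher genes stood at 25% or more of its highest class. Kcnj10 had 55.8 CPM in KO-CFC and 153 in WT-CFC, a log2 ratio of -1.44 (-1.94 to -0.99). Kcnk13 had a log2 ratio of -0.66, under 1.5-fold in 4 of 11 alternatives, and Kcna6 of -0.59, under it in 6 of 11. In oligodendrocyte precursor-like nuclei 7 of 23 genes were lower, beside 14.8% of all genes, and 0 higher, beside 9.88%. The log2 ratio was -0.77 for Kcnt2, -0.64 for Kcnq1ot1, -0.63 for Kcnb2 and -0.59 for Kcnip1. Kcnip1 was under 1.5-fold in 8 of 11 alternatives, Kcnq1ot1 and Kcnb2 in 4 of 11 each, and Kcnt2 in 1 of 11. In neuroblast-like nuclei 1 of 17 genes was lower, beside 9.54%.

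In endothelial-like nuclei, 85 in KO-CFC and 66 in WT-CFC, 11 of 11 genes were lower, beside 41.2% of all genes, and each was higher in another class. Their median log2 ratio was -1.38, beside -0.30 over all genes compared there. Kcnq5 had 76.8 CPM in KO-CFC and 1082 in WT-CFC, a log2 ratio of -3.78 (-4.59 to -3.14). Kcnip4 had 1122 CPM in KO-CFC and 3232 in WT-CFC, a log2 ratio of -1.52 (-1.73 to -1.33). The log2 ratio was -1.78 for Kcnb2, -1.47 for Kcnab1 and -1.72 for Kcnq1ot1. Syt1, a synaptic vesicle gene, had 674 CPM in KO-CFC and 1791 in WT-CFC in these nuclei, and Snap25, another, 260.1 CPM in KO-CFC and 627 in WT-CFC. The 92 neuron markers summed to 3604 CPM in KO-CFC and 3959 in WT-CFC. Markers of blood and vessel cells were higher in KO-CFC: the 10 erythroid markers summed to 35650 CPM in KO-CFC and 3359 in WT-CFC, the 16 endothelial markers to 10410 CPM in KO-CFC and 5301 in WT-CFC, and the 21 mural markers to 4068 CPM in KO-CFC and 1643 in WT-CFC. The part of any of these RNAs in the count was not tested.

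In microglia-like nuclei 14 of 21 genes were higher, beside 20.2% of all genes, with a median log2 ratio of 1.02, beside -0.09 over all genes compared. Kcnip4 had 1335 CPM in KO-CFC and 375 in WT-CFC, a log2 ratio of 1.83 (1.61 to 2.06). Kcnk1 had 91.9 CPM in KO-CFC and 36.5 in WT-CFC, a log2 ratio of 1.30 (0.61 to 2.13). The log2 ratio was 1.30 for Kcnj6, 0.93 for Kcnq1ot1 and 0.71 for Kcnma1. With nuclei of at least 1000 UMIs it was -0.03 for Kcnj6 and -0.14 for Kcnq1ot1. The lowest log2 ratio of Kcnma1 over the alternatives was 0.05, and each of these 3 genes was under 1.5-fold in 3 of 11. Syt1 had 729 CPM in KO-CFC and 580 in WT-CFC in these nuclei, Snap25 308 CPM in KO-CFC and 650.5 in WT-CFC, and the 92 neuron markers summed to 3310 CPM in KO-CFC and 3204 in WT-CFC. The microglial channel Kcnk13 had 111 CPM in KO-CFC and 166 in WT-CFC, a log2 ratio of -0.58 (-0.98 to -0.17). The part of neuronal RNA in this count was not tested either.

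Other genes of potassium handling were followed as a list of 28 sodium pump subunits, cation-chloride cotransporters and channel partners. In granule neuron-like nuclei 2 of 21 were higher in KO-CFC than in WT-CFC, beside 15.4% of all genes, and 3 lower, beside 7.09%. For WT-CFC over WT-naive 0 of 20 were higher, beside 1.69% of all genes, and 0 lower, beside 1.78%. Atp1b1, the pump's beta subunit, was past 1.5-fold higher in KO-CFC in 7 classes. Astrocyte-like nuclei had 892 CPM in KO-CFC and 326 in WT-CFC, a log2 ratio of 1.45 (1.30 to 1.60), and granule neuron-like nuclei 1044 CPM in KO-CFC and 693 in WT-CFC, a log2 ratio of 0.59 (0.54 to 0.64). Slc12a2, the cotransporter that brings sodium, potassium and chloride in, was lower in 6 classes. Oligodendrocyte-like nuclei had 267 CPM in KO-CFC and 602 in WT-CFC, a log2 ratio of -1.17 (-1.39 to -0.96). Channel partners moved both ways in granule neuron-like nuclei. Abcc8, the receptor that pairs with Kcnj11, had 27.0 CPM in KO-CFC and 52.3 in WT-CFC, a log2 ratio of -0.95 (-1.21 to -0.71). Dpp6, a Kv4 partner, had 726 CPM in KO-CFC and 1233 in WT-CFC, a log2 ratio of -0.77 (-0.81 to -0.72). Dpp10, a Kv4 partner of the same family, was higher, with 68.8 CPM in KO-CFC and 22.2 in WT-CFC, a log2 ratio of 1.63 (1.38 to 1.89). In mossy cell-like nuclei Dpp10 had 198 CPM in KO-CFC and 79.3 in WT-CFC, a log2 ratio of 1.32 (1.13 to 1.51). In the cells, Atp1b1 was higher in CFC-14d than in Random-14d in 6 classes, among them neuroblast-like, neutrophil-like and smooth muscle cell-like cells, where the epithelial markers were higher too.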

How the data were processed

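The deposited files hold UMI counts per gene and barcode, written by Cell Ranger 8.0.1, per the file headers. Seurat 5.4.0, GRCm39 and mm39 stand in the submitters' processing notes, with no role given, and the release of the annotation was not given in the sources used here. Deposited barcodes numbered 32827 in CFC-14d, 30515 in Random-14d, 8395 in KO-CFC, 13213 in WT-CFC and 10968 in WT-naive. Barcodes with at least 500 UMIs, 300 genes and at most 20% (cells) or 5% (nuclei) mitochondrial UMIs were kept, and the 8% with the highest doublet score in each library were removed, a score computed from simulated doublets, since no source says that doublets were removed before deposit. This left 28532 barcodes in CFC-14d, 26462 in Random-14d, 7708 in KO-CFC, 12014 in WT-CFC and 9894 in WT-naive.

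Cells and nuclei were clustered apart (2000 variable genes, 30 principal components, 15 neighbours, Leiden resolution 1) with Python 3.11.15, numpy 2.4.6, scipy 1.17.1, pandas 2.3.3, leidenalg 0.10.2, igraph 0.11.9 and matplotlib 3.10.9. Clusters were named from 32 marker lists, and a class needed 50 barcodes or more in every library of its kind. The thresholds for naming, the joint T or NK class and the treatment of cycling cells as a class of their own were set after the data were seen. Counts were summed per class and library, and ratios have 0.5 counts added to each sum and exact 95% counting intervals. The 1.5-fold call was tried on simulated counts with known folds, while the intervals were not tested. Reads are not replicates: with 1 library per group nothing measures the spread between mice.

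Named in the text are genes that mark a class or broad group, and for each class and comparison up to 5 genes per direction past 1.5-fold at 25% or more of their highest class, and a fixed list of well-known channel genes wherever measured. Some genes this rule names are not reported here. Kcna4, Kcne4, Kcnf1, Kcng1, Kcnk4, Kcnmb2 and Kcns3, outside this rule in the account of classes, were added after their values were seen. The genes, lists and rules were chosen with earlier results of these data known. No annotation of cell types by the authors was used here.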

Additional observations from a re-analysis of the deposited data

How the results depend on the processing

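Counts stayed within 1.5 times their value in 110 recomputations and moved further in 22. Of recomputed log2 ratios, 712 stayed within the counting interval, 81 left it and 20 changed sign. Of recomputed class levels, 1258 stayed within it and 223 left it, most often with barcodes weighted equally (44 left it, 124 stayed). Genes marking a class numbered 28 with 5 UMIs and 10 at 3-fold in cells (17 as reported), and 5 at resolution 2 and 3 at 3-fold in nuclei (8 as reported), with 2 for broad groups of nuclei at 3-fold (7 as reported). For CFC-14d over Random-14d, higher pairs numbered 16 with 15% of barcodes removed as doublets and 59 with 30 UMIs (25 as reported). Lower pairs, 0 as reported, numbered 1 with 1000 UMIs, the stricter mitochondrial limit, no doublet removal, 15% removed, potassium channel genes among the variable genes or resolution 2, 2 with libraries clustered apart or barcodes weighted equally, and 8 with 30 UMIs. With 30 UMIs WT-CFC over WT-naive gave 56 higher and 33 lower. KO-CFC over WT-CFC gave 94 higher with 30 UMIs, 20 with 15% removed and 25 with equal weights (42 as reported), and 25 lower with classes of at least 200 barcodes (60 as reported).

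Signs changed as follows. In neutrophil-like cells Kcne2 was -0.09 and Kcnj13 -0.15 with 1000 UMIs, -0.42 and -0.19 with the stricter mitochondrial limit, -0.32 and -0.09 at resolution 2, and -2.63 and -2.52 with libraries clustered apart, where Kcnk1 was -1.76. In cycling cell-like cells Kcnk1 was -0.39 and Kcne2 -0.52 with the stricter limit, Kcnk1 was -0.09 with 15% removed, and Kcnk1 was -0.64, Kcnj13 -0.17 and Kcne2 -0.61 with potassium channel genes among the variable genes. Kcnab1 in smooth muscle cell-like cells was -0.08 without doublet removal and -0.34 at resolution 2. For KO-CFC over WT-CFC, Kcnq1ot1 was -0.14 and Kcnj6 -0.03 in microglia-like nuclei with 1000 UMIs, and Kcnk12 -0.02 in CA3 pyramidal-like nuclei at resolution 2. The causes were not tested. Leaving out KO-CFC, choroid plexus cells or the CA3 class, chosen after seeing the data, moved no count it applies to by over 1.5 times. For CFC-14d over Random-14d, leaving out choroid plexus cells can remove only their own 8 of the 25 higher pairs. It keeps the 15 pairs of Kcnj13, Kcne2 or Kcnk1 in other classes, so it cannot test choroid RNA there. No paired analysis was possible because each group has 1 library.

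Genes under 100 UMIs over both libraries were not compared, so changes of low genes were not detectable at this depth.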

Other observations

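Potassium channel RNA was also found in nuclei that stayed unnamed. A cluster with 1198 nuclei in KO-CFC, 35 in WT-CFC and 12 in WT-naive, led by Kcnq5, had 2196 CPM of Kcnq5 in KO-CFC. In the same nuclei Kcnip4 had 2117 CPM, Kcnd2 839.5 CPM and Kcnq3 550.5 CPM. The CA3 pyramidal-like class of KO-CFC, which holds 131 nuclei, had 2756 CPM of Kcnq5 and 2479 CPM of Kcnip4. Whether this cluster belongs with CA3 was not tested.

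Another unnamed cluster held 35 nuclei in KO-CFC, 4569 in WT-CFC and 1502 in WT-naive. Kcnip4 had 502 CPM there in WT-CFC and 545 in WT-naive, Kcnq5 263 CPM in WT-CFC and 288 in WT-naive, and Kcna1 111 CPM in WT-CFC and 159 in WT-naive. A further one, of 1010 nuclei in KO-CFC and 1 in WT-CFC, was led by immunoglobulin genes and had 539 CPM of Kcnip4 and 189 CPM of Kcna1 in KO-CFC.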
